A study of Mus musculus with 12 samples.

Results

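Cytochromes P450 of families 1 to 4 are the heme enzymes of the endoplasmic reticulum with which hepatocytes oxidize drugs, solvents, fatty acids and steroids. Their genes were followed here in hepatocytes sorted with or without a p16 reporter, from mice given CCl4 or its vehicle. Every gene whose mouse symbol starts with Cyp1, Cyp2, Cyp3 or Cyp4 and a subfamily letter was taken, and names ending in -ps were left out. These were 89 of the 54839 features in the count table. They belong to 22 subfamilies, with 3 genes in family 1, 52 in family 2, 10 in family 3 and 24 in family 4. Of the 89, 8 have names of numbered pseudogenes or of an antisense transcript, and 7 of these 8 had no count in any library.

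P450s take electrons from the reductase Por and use them to insert an oxygen atom into their substrate. Most are induced through nuclear receptors or the aryl hydrocarbon receptor, many lie in the zone around the central vein, and several are sex-biased in the mouse because growth hormone is secreted differently in males and females. Cyp2e1 is the enzyme known to turn CCl4 into the radical that injures the pericentral hepatocyte.

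The mRNA of 12 libraries was sequenced, 3 in each of 4 groups. All came from male p16-Tom mice on a C57BL/6 background, heterozygous for p16-CreERT2 and carrying the R26-CAG-LSL-tdTomato-WPRE reporter, and all received tamoxifen at 80 mg/kg, so that no group was free of it. Oil mice received corn oil, and CCl4 mice received 1 mL/kg CCl4 (20% in corn oil) intraperitoneally every 3 days for 4 weeks; the age of the mice was not given in the sources used here. Cells were isolated by collagenase perfusion and sorted as live Tom+ or Tom- cells. The Tom label marks cells in which the p16 promoter drove Cre when tamoxifen was given. The labels do not say which animal gave each library, so that p-values measure the spread between libraries.

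Libraries held 37568584 to 75331424 counts, with a median of 47910752. The tdTomato reporter went against the label in 2 oil libraries: Tom- oil replicate 1 had 1794 CPM (counts scaled to library size by TMM), against 157 and 143 in the other Tom- oil libraries, and Tom+ oil replicate 2 had 135 CPM against 1546 and 1225. In CCl4 the reporter was 120 to 263 CPM in Tom- and 1316 to 1369 CPM in Tom+. Labels were kept as deposited. Where leaving out these 2 changed a member's call in CCl4 against oil, this is stated. The value without them is given, except for Cyp4f16 in Tom+. Summed markers of hepatocytes were 86570 to 131500 CPM, whereas those of stellate cells and fibroblasts were 6.72 to 105 CPM, of endothelium 83.9 to 229 CPM, of macrophages 14.4 to 119 CPM, of cholangiocytes 1.42 to 5.79 CPM and of leukocytes 0.368 to 4.75 CPM. In these bulk libraries, fewer cells of a type and less RNA per cell cannot be told apart.

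Promoter sequence is shown for close relatives on the same chromosome that differed in level (Cyp2b), differed in response (Cyp2c) or could hardly be told apart by their reads (Cyp3a41a and Cyp3a41b). The 250 bases before the RefSeq start (GRCm38.p6) are given 5′ to 3′ on the gene's strand. The first pair is Cyp2b13 (chr7:26061245-26061494, plus strand) and Cyp2b9 (chr7:26173159-26173408, plus strand). They differ at 2 of 250 bases, written in capitals, yet Cyp2b9 had a mean of 362 TPM (a level per length of transcript) and Cyp2b13 10.1 TPM.
Cyp2b9: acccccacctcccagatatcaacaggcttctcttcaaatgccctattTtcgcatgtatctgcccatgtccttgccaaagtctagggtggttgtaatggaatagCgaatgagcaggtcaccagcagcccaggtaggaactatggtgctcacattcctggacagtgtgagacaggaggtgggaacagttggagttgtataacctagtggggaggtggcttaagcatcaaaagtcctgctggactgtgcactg
Cyp2b13: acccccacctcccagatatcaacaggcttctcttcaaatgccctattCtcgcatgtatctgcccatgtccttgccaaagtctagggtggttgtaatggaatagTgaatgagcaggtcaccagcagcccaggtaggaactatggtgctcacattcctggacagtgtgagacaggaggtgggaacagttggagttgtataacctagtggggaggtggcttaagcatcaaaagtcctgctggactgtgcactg

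The next 3 are female-biased Cyp3a genes on the minus strand of chromosome 5, whose levels ranged widely between libraries. They are Cyp3a41a (chr5:145720137-145720386), Cyp3a41b (chr5:145584731-145584980) and Cyp3a44 (chr5:145805875-145806124). Capitals mark the HNF4-type motif CAAAGTCCA, which lies 95 bases before the start in both Cyp3a41 genes. In Cyp3a44 capitals mark the letters at the same place, which differ from the motif at 1 base.
Cyp3a41a: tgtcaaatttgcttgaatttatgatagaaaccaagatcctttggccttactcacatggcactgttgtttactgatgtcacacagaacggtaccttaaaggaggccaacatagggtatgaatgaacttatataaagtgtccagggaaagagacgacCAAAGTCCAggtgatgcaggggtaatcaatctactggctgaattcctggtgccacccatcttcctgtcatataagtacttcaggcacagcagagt
Cyp3a41b: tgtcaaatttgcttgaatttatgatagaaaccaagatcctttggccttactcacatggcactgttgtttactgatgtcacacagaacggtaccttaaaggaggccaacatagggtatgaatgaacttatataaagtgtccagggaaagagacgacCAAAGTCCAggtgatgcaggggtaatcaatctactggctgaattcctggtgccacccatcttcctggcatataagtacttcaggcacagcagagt
Cyp3a44: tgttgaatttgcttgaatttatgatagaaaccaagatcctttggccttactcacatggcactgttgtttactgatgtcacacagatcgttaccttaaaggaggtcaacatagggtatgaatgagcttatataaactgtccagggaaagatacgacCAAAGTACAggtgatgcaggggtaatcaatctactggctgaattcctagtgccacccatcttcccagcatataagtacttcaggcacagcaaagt

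The last pair are neighbours on the minus strand of chromosome 19, of which Cyp2c67 (chr19:39649043-39649292) fell with CCl4 in both fractions and Cyp2c68 (chr19:39741102-39741351) did not pass the test. Both windows hold the same motif, again in capitals, at 125 and 77 bases before the RefSeq start. The deposited gene start of Cyp2c67 (39649051) lies within its window, whereas that of Cyp2c68 (39741054) lies downstream of its window. The 2 distances therefore do not show a shift of the motif between the genes.
Cyp2c67: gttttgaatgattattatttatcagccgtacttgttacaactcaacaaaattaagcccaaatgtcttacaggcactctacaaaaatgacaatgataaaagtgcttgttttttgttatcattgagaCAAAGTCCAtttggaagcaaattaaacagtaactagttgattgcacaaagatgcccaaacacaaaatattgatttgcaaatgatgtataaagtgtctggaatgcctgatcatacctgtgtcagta
Cyp2c68: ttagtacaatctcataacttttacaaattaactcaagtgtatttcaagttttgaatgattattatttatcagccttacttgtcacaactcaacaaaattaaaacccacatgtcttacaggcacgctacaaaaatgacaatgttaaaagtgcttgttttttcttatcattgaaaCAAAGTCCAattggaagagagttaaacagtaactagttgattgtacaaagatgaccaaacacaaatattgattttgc

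Promoter windows of 300 bases (250 before and 50 after the start) were found for 67 of the 89 members. Searched on both strands, CAAAGTCCA was present in 10 of the 67 genes (14.9%) and in 0.48% of all 32841 windows. For this and the other motifs, members were counted by gene, some with several windows, and the background by window. The 10 genes are Cyp2c40, Cyp2c65, Cyp2c67, Cyp2c68, Cyp2c69, Cyp2c70, Cyp3a11, Cyp3a16, Cyp3a41a and Cyp3a41b, so that all belong to the Cyp2c and Cyp3a subfamilies. The letters TATAAA, at any place in the window, were found in 29 genes (43.3%, against 13.62% of windows). Not all were TATA boxes by place or strand. TATAAA lay 31 bases before the start in Cyp2e1 but 234 in Cyp3a11, and on the other strand in Cyp2d10. The STAT5-type TTCNNNGAA was found in 4 genes (6.0%, against 8.3%) and the aryl hydrocarbon receptor core GCGTG in 14 (20.9%, against 32.4%). The DR1 repeat bound by PPAR alpha was in none of the 67 and in 0.04% of windows. The AHR core was present in the Cyp1a1 window but not in that of Cyp1a2. These matches are descriptions of letters, and members of a subfamily share ancestry.

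Of the 89 members, 56 reached a mean of 1 TPM over the 12 libraries and 17 had no count in any library. Cyp3a11, the main mouse CYP3A and a target of the xenobiotic receptor PXR, was the most abundant at 2206 TPM, followed by Cyp2e1 at 1911 TPM, Cyp2c29 at 1201 TPM and the bile acid hydroxylase Cyp2c70 at 1098 TPM. These 4 were the members above 1000 TPM, and a further 27 lay between 100 and 1000 TPM. The 10 highest made up 61.7% of all member TPM. By subfamily, Cyp2c (15 genes) summed to 4992 TPM, Cyp3a (10 genes) to 3558 TPM, Cyp2d (8 genes) to 1913 TPM and Cyp4a (9 genes) to 1105 TPM. Cyp1a was almost entirely the methylxanthine oxidase Cyp1a2 (425 TPM), since the inducible Cyp1a1 stood at 0.819 TPM. Cyp2a12 (384 TPM), the arachidonic acid epoxygenase Cyp2j5 (575 TPM), Cyp2d26 (908 TPM), Cyp4f14 (313 TPM), Cyp4v3 (421 TPM) and the vitamin D hydroxylase Cyp2r1 (19.9 TPM) were each the highest of their subfamily. The estrogen hydroxylase Cyp1b1 was at 0 in 9 libraries and had a mean of 0.0105 TPM. Cyp2w1, Cyp2ab1 and Cyp4x1 had no count, which in a library allows up to 0.0398 to 0.0799 CPM (3 counts, counting error only).

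**Figure D1:**
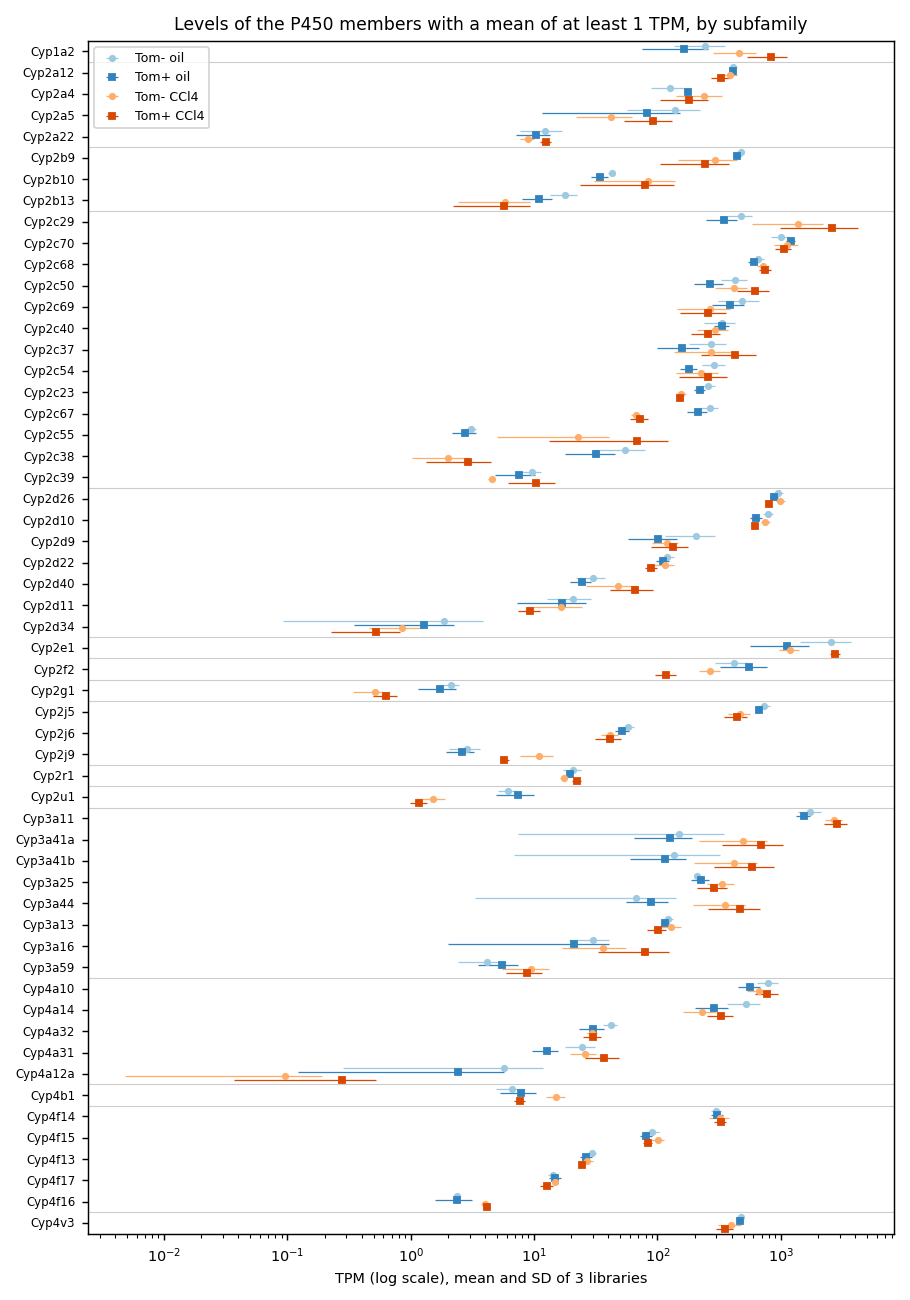
Mean and SD of 3 libraries in TPM (log axis) of the 56 members with a mean of at least 1 TPM, grouped by subfamily with horizontal lines, in 4 groups (circles Tom-, squares Tom+, blue oil, orange CCl4). A lower bar that would reach 0 is cut at 5% of the mean. Cyp3a11, Cyp2e1, Cyp2c29 and Cyp2c70 lie above 1000 TPM, and the CCl4 groups separate from the oil groups for Cyp2c38, Cyp2c67, Cyp2j9 and Cyp2u1.

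Together, members took 1.27 to 2.58% of all counts. The share was 1.76% ± 0.253 (SD, n = 3) in Tom- oil, 1.99% ± 0.267 in Tom- CCl4, 1.46% ± 0.210 in Tom+ oil and 2.25% ± 0.420 in Tom+ CCl4. In Tom+ the CCl4 libraries were all above the oil libraries, with an exact two-sided permutation p of 0.1, the smallest that 3 against 3 libraries allow, and in Tom- the exact p was 0.4. Against Tom-, the share in Tom+ gave an exact p of 0.4 in CCl4 and 0.2 in oil. Adjusted over these 4 comparisons, each p was 0.4.

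Of the 10 female-biased members, some were abundant in these male mice in all groups, oil included, and others were low or varied widely. All 12 libraries had counts of Y-linked genes (summed at 106 to 137 CPM), while Xist stayed at or under 0.213 CPM. Cyp2b9, a female-biased steroid hydroxylase, had 375, 397 and 352 CPM in Tom- oil, 353, 373 and 332 CPM in Tom+ oil, 252, 365 and 127 CPM in Tom- CCl4 and 159, 276 and 87.3 CPM in Tom+ CCl4. The Tom+ groups did not overlap, as for 29.3% of all genes, but neither fraction passed the test (adjusted p = 0.374 in Tom- and 0.182 in Tom+). Cyp2b13 was lower, at 1.29 to 16.9 CPM, and Cyp3a16 spread from 2.01 to 84.97 CPM. Cyp2a4, a testosterone hydroxylase, was at 180 TPM, and Cyp2c40 and Cyp2c69 at 303 and 349 TPM. By contrast, the male-biased fatty acid hydroxylase Cyp4a12a had a mean of 2.13 TPM and at most 12.7 TPM in a library, whereas the male-biased Cyp2d9 stood at 139 TPM. No group without tamoxifen was present, and the part of tamoxifen in these levels was not tested.

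The female-biased Cyp3a genes on chromosome 5 varied widely between libraries, with coefficients of variation over the 12 libraries of 89.5% for Cyp3a41a, 86.9% for Cyp3a41b and 88.0% for Cyp3a44. Cyp3a41a had 19.3, 37.4 and 324 CPM in Tom- oil, 50.2, 122 and 166 CPM in Tom+ oil, 697, 466 and 207 CPM in Tom- CCl4 and 720, 674 and 234 CPM in Tom+ CCl4. Libraries of one number were alike across fractions in CCl4, with replicate 3 low in both, and in oil replicate 3 was the high one in both. Cyp3a41b and Cyp3a44 followed the same order of libraries in CCl4 Tom-. None passed the test with CCl4 (Cyp3a41a adjusted p = 0.263 in Tom- and 0.229 in Tom+). Cyp3a41a and Cyp3a41b share 88.4% and 88.2% of their 100-base transcript words (GENCODE) with each other, so that reads could not be assigned firmly to either. For the other members tested, the words shared with any other transcript were at most 36.2%, the highest being those of Cyp4a12a and Cyp4a12b.

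**Figure D2:**
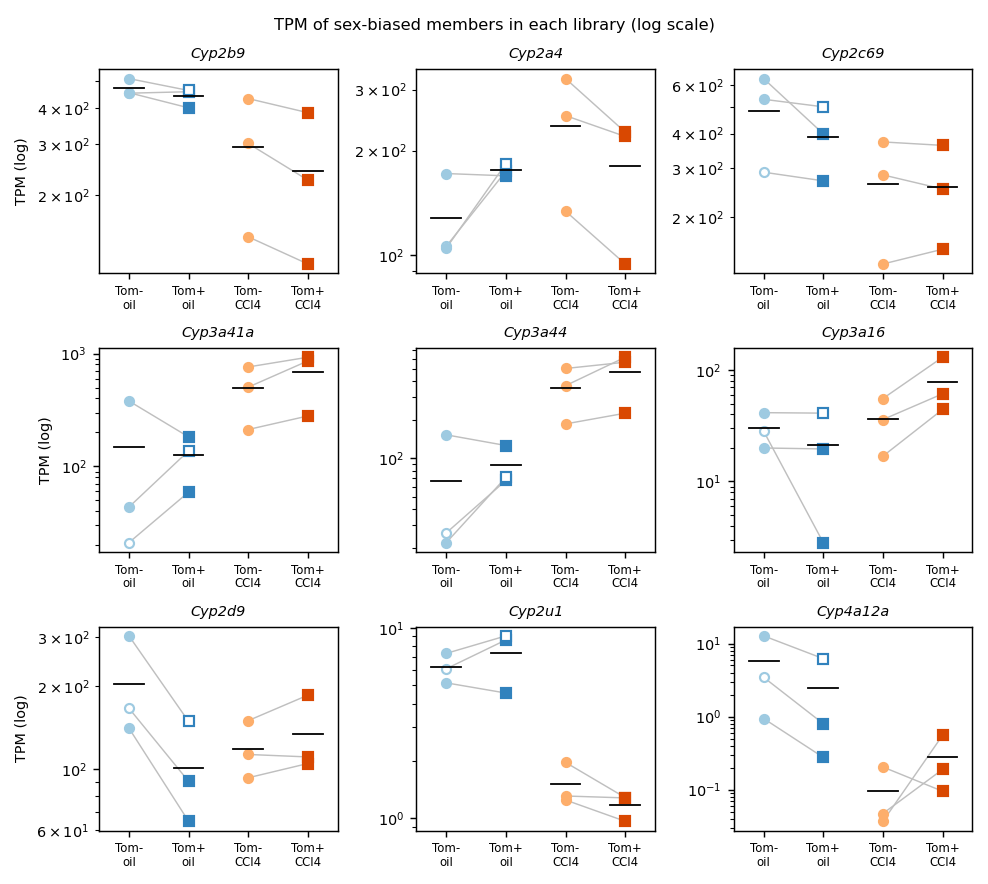
TPM (log axis) in each of the 12 libraries for 6 female-biased members (upper rows) and 3 male-biased members (lower row). Grey lines join Tom- and Tom+ libraries of one number, black bars are means of 3, and open symbols are the 2 oil libraries whose reporter went against the label; Cyp2b9 is never below 115 TPM and Cyp4a12a never above 12.7 TPM.

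Of the 10 female-biased members, Cyp4a14 fell with CCl4 in Tom- and none rose, and none passed in Tom+ (medians of log2 fold change 0.135 and -0.0293, against 0.0046 and 0.002 over all genes tested). The Cyp4a14 call was lost on leaving out any of 9 single libraries. Of the 4 male-biased members, 3 fell in Tom- (Cyp2u1, Cyp4a12a, Cyp4a12b) and Cyp2u1 fell in Tom+, where 1.59% and 2.34% of all genes fell. The medians were -3.89 and -2.47. In Tom- CCl4, Cyp4a12a had at most 8 counts in a library and Cyp4a12b at most 2. The more abundant Cyp2d9 passed in neither fraction.

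CCl4 against oil was compared in each fraction by edgeR's quasi-likelihood test with Benjamini-Hochberg adjustment over all genes, and a gene passed at an adjusted p under 0.05 and a log2 fold change beyond 0.75. This could be tested for 62 members, and the other 27 had too few counts. In Tom-, 5 rose and 7 fell, that is 8.06% and 11.3% of members tested, where 6.33% and 1.59% of all 17121 genes did. In Tom+, 6 rose and 5 fell (9.68% and 8.06%), against 2.9% and 2.34% of all genes. Cyp3a11 and Cyp2j9 rose and Cyp2c38, Cyp2c67, Cyp2g1 and Cyp2u1 fell in both fractions, and no member passed in opposite directions. Median log2 fold changes over members were 0.025 in Tom- and -0.0074 in Tom+, beside 0.0046 and 0.002 over all genes.

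Among the leading genes of other subfamilies, Cyp2j5 (adjusted p = 0.025 in Tom- and 0.00726 in Tom+), Cyp4v3 (0.45 and 0.0205) and Cyp2a12 (0.999 and 0.0273) did not reach the fold limit.

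**Figure D3:**
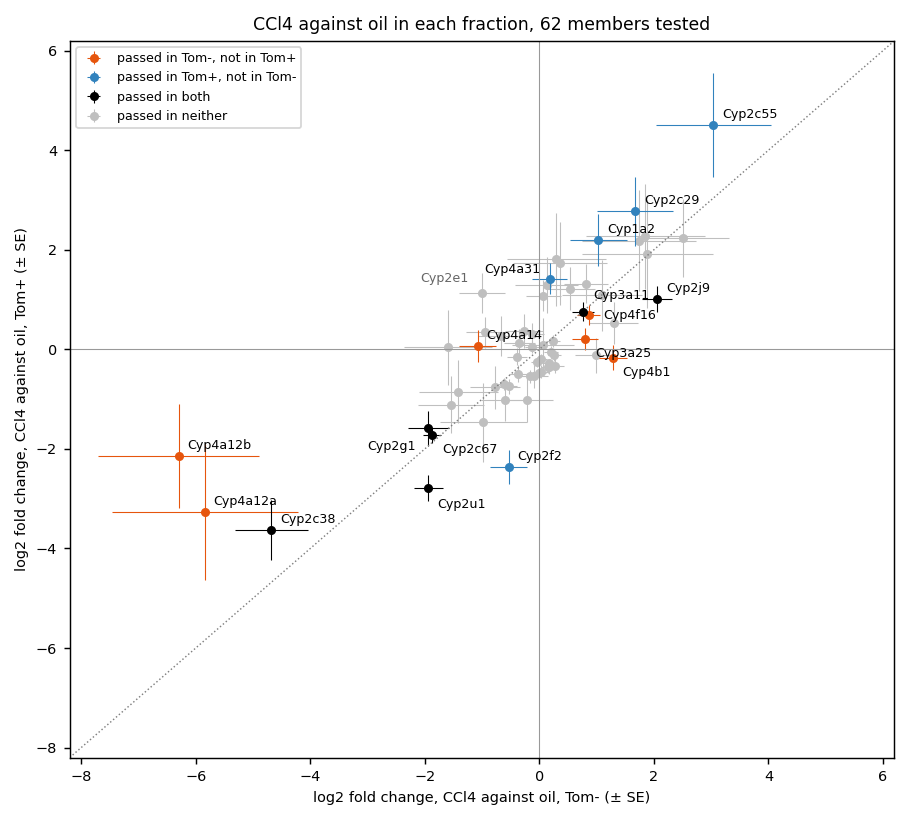
Log2 fold change of CCl4 against oil in Tom- (x axis) and in Tom+ (y axis) of the 62 members tested, with standard errors and a dotted line of equal change. Cyp2c38, Cyp2c67, Cyp2g1 and Cyp2u1 lie low on both axes, Cyp2j9 and Cyp3a11 high on both, and Cyp2e1 (-1.003 and 1.14) lies on opposite sides of 0 without passing in either.

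Among the members that rose, Cyp3a11 had 3088, 3723 and 4399 CPM in Tom- oil and 5063, 6819 and 7061 CPM in Tom- CCl4. In Tom+ it had 2769, 3780 and 3449 CPM in oil and 4166, 6448 and 6248 CPM in CCl4. All CCl4 libraries were above all oil libraries of their fraction, where 36% of all genes in Tom- and 29.3% in Tom+ had groups that did not overlap. Cyp3a11 rose by a log2 fold change of 0.76 ± 0.192 (SE, adjusted p = 0.0183) and 0.75 ± 0.192 (adjusted p = 0.0262), close to the limit of 0.75. Without the 2 oil libraries in doubt the Tom- value was 0.64 (adjusted p = 0.0805) and the Tom+ value 0.86 (adjusted p = 0.0398). The related Cyp3a25 rose in Tom- by 0.79 ± 0.225 (adjusted p = 0.0341), and this call was lost without those 2 libraries (adjusted p = 0.115).

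Cyp2j9, a CYP2J of the arachidonic acid epoxygenase group, had 3.01, 5.08 and 3.96 CPM in Tom- oil and 13.4, 13.8 and 23.2 CPM in Tom- CCl4, a log2 fold change of 2.06 ± 0.260 (adjusted p = 0.000441). In Tom+ it went from 3.16, 3.04 and 4.95 CPM to 7.42, 6.59 and 8.31 CPM (1.01 ± 0.256, adjusted p = 0.0261). Thus the CCl4 libraries of Tom- were the highest of the 12. In Tom-, Cyp4b1, a fatty acid and pneumotoxin oxidase, rose by 1.28 ± 0.247 (adjusted p = 0.00493) and Cyp4f16 by 0.86 ± 0.199 (adjusted p = 0.0113). Beside these, all 6 endothelial markers rose in Tom- (median 1.07) and none of 6 in Tom+ (median 0.08), and 6 of 7 stellate and fibroblast markers tested rose in Tom- and 5 of 7 in Tom+. The part of such cells in the Cyp2j9 and Cyp4b1 values was not tested.

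Of the members that rose in Tom+ and did not pass in Tom-, Cyp1a2, a target of the aryl hydrocarbon receptor, went from 98.8, 234 and 94.4 CPM to 403, 645 and 918 CPM (2.20 ± 0.523, adjusted p = 0.0315). Cyp2c29, a target of the receptors CAR and PXR, went from 327, 595 and 439 CPM to 888, 3728 and 4723 CPM (2.78 ± 0.693, adjusted p = 0.0391), and its CCl4 replicate 1 was low in both fractions. Cyp2c55, a hydroxyeicosatetraenoic acid-forming CYP2C, went from 1.94, 2.98 and 2.16 CPM to 8.49, 54.8 and 97.0 CPM (4.50 ± 1.05, adjusted p = 0.031). The peroxisome proliferator target Cyp4a31 rose by 1.42 ± 0.310 (adjusted p = 0.0186). For these 4 the Tom+ groups did not overlap, as for 29.3% of all genes. The corresponding values in Tom- were 1.03 for Cyp1a2 (adjusted p = 0.198), 1.67 for Cyp2c29 (adjusted p = 0.124), 3.04 for Cyp2c55 (adjusted p = 0.0744) and 0.18 for Cyp4a31 (adjusted p = 0.727). None of these passed by edgeR, but DESeq2 called Cyp2c29 and Cyp2c55 higher in Tom- too.

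The 6 calls upward in Tom+ depended on single libraries. None remained without Tom+ oil replicate 1 or without Tom+ CCl4 replicate 3, 1 without Tom+ CCl4 replicate 2 and 2 without Tom+ oil replicate 3. The 5 in Tom- became 3 without Tom- oil replicate 1, without Tom- oil replicate 2 or without Tom- CCl4 replicate 2. Cyp3a11 and Cyp3a25 did not pass without Tom- CCl4 replicate 3 either, where 4 rose. Without both oil libraries in doubt, 3 rose and 7 fell in Tom-, and 5 rose and 4 fell in Tom+. Of the 6 in Tom+, Cyp1a2, Cyp3a11 and Cyp4a31 still passed, Cyp2c29 (3.03, adjusted p = 0.109), Cyp2c55 (4.71, adjusted p = 0.112) and Cyp2j9 (0.89, adjusted p = 0.0909) did not, and Cyp2e1 and Cyp4f16 passed instead. In Tom-, Cyp2j9, Cyp4b1 and Cyp4f16 still rose.

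Among the members that fell, Cyp2c38, an arachidonic acid epoxygenase, went from 37.0, 93.9 and 67.6 CPM to 1.74, 4.04 and 2.05 CPM in Tom- (-4.68 ± 0.635, adjusted p = 0.00238) and from 21.3, 56.5 and 39.6 CPM to 1.35, 4.74 and 3.59 CPM in Tom+ (-3.64 ± 0.601, adjusted p = 0.00726). Cyp2c67 went from 162, 217 and 201 CPM to 55.9, 52.3 and 49.7 CPM in Tom- (-1.88 ± 0.151, adjusted p = 9.23e-06) and from 132, 192 and 152 CPM to 43.4, 56.3 and 44.3 CPM in Tom+ (-1.72 ± 0.150, adjusted p = 2.24e-05). Its libraries were tight within each group, whereas its neighbour Cyp2c68 had means of 656, 606, 721 and 750 TPM in Tom- oil, Tom+ oil, Tom- CCl4 and Tom+ CCl4. Cyp2c67 shares 23.7% and Cyp2c68 19.8% of its transcript words with other transcripts.

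Cyp2u1, a widely expressed fatty acid hydroxylase, went from 14.1, 16.0 and 11.1 CPM to 4.58, 2.93 and 3.25 CPM in Tom- (-1.94 ± 0.254, adjusted p = 0.000578) and from 18.6, 20.5 and 10.5 CPM to 2.54, 1.92 and 2.71 CPM in Tom+ (-2.79 ± 0.261, adjusted p = 4.16e-05). Cyp2g1, best known from olfactory mucosa, was low and fell by 1.94 and by 1.59 on the log2 scale (adjusted p = 0.00364 and 0.0121). All 4 members that fell in both fractions passed under each of the 19 alternatives in Tom-. In Tom+, Cyp2g1 did not pass without Tom+ oil replicate 2 or without Tom+ CCl4 replicate 2, nor without both oil libraries in doubt (adjusted p = 0.0765).

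Fatty acid hydroxylases of the Cyp4a subfamily, known targets of PPAR alpha, diverged. Cyp4a14 had 484, 764 and 486 CPM in Tom- oil and 177, 333 and 312 CPM in Tom- CCl4 (-1.08 ± 0.325, adjusted p = 0.0486), and it did not pass without the 2 oil libraries in doubt (adjusted p = 0.0703). Leaving out 1 library at a time, the call was lost for 9 of the 12 libraries, among them every Tom- library. Cyp4a10, the most abundant of them at 702 TPM, did not pass in either fraction (adjusted p = 0.716 and 0.399). Cyp4a12a had 3.69, 12.8 and 0.940 CPM in Tom- oil and 0.0506, 0.221 and 0.0422 CPM in Tom- CCl4 (adjusted p = 0.0403), and passed under 8 of 18 alternatives. Cyp4a12b had at most 2 counts in a Tom- CCl4 library and was at least 19.6-fold lower there than in Tom- oil, taking 3 counts per library as the floor (adjusted p = 0.011). Cyp4a12a and Cyp4a12b share 35.8% and 36.2% of their words, so that their reads are uncertain too.

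Cyp2f2, the periportal naphthalene oxidase, was called in Tom+, where it went from 591, 570 and 256 CPM to 109, 85.3 and 81.4 CPM (-2.36 ± 0.341, adjusted p = 0.00286). In Tom- it went from 451, 391 and 229 CPM to 252, 284 and 204 CPM and did not pass (adjusted p = 0.293). Cyp2e1 had 1519, 3427 and 2047 CPM in Tom- oil and 897, 1319 and 1274 CPM in Tom- CCl4, but 509, 1583 and 1061 CPM in Tom+ oil and 2014, 2491 and 2437 CPM in Tom+ CCl4. The groups did not overlap in either fraction, in opposite directions, where 36% of all genes in Tom- and 29.3% in Tom+ did not overlap. Neither fraction passed for Cyp2e1 (-1.003 ± 0.398, adjusted p = 0.117, and 1.14 ± 0.3995, adjusted p = 0.112). Without the 2 oil libraries in doubt both passed, at -1.23 (adjusted p = 0.0458) and 1.57 (adjusted p = 0.0346). When Tom- and Tom+ counts of one number were summed, 2 members rose (Cyp2j9, Cyp4f16) and 5 fell (Cyp2c38, Cyp2c67, Cyp2f2, Cyp2g1, Cyp2u1) of 63 tested, against 3.34% and 1.44% of all genes, and Cyp2e1 was at 0.13 ± 0.363 (adjusted p = 0.852). On leaving out 1 summed library at a time, the call of Cyp2f2 was lost in 5 cases, that of Cyp4f16 in 3 and that of Cyp2c38 in 2.

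**Figure D4:**
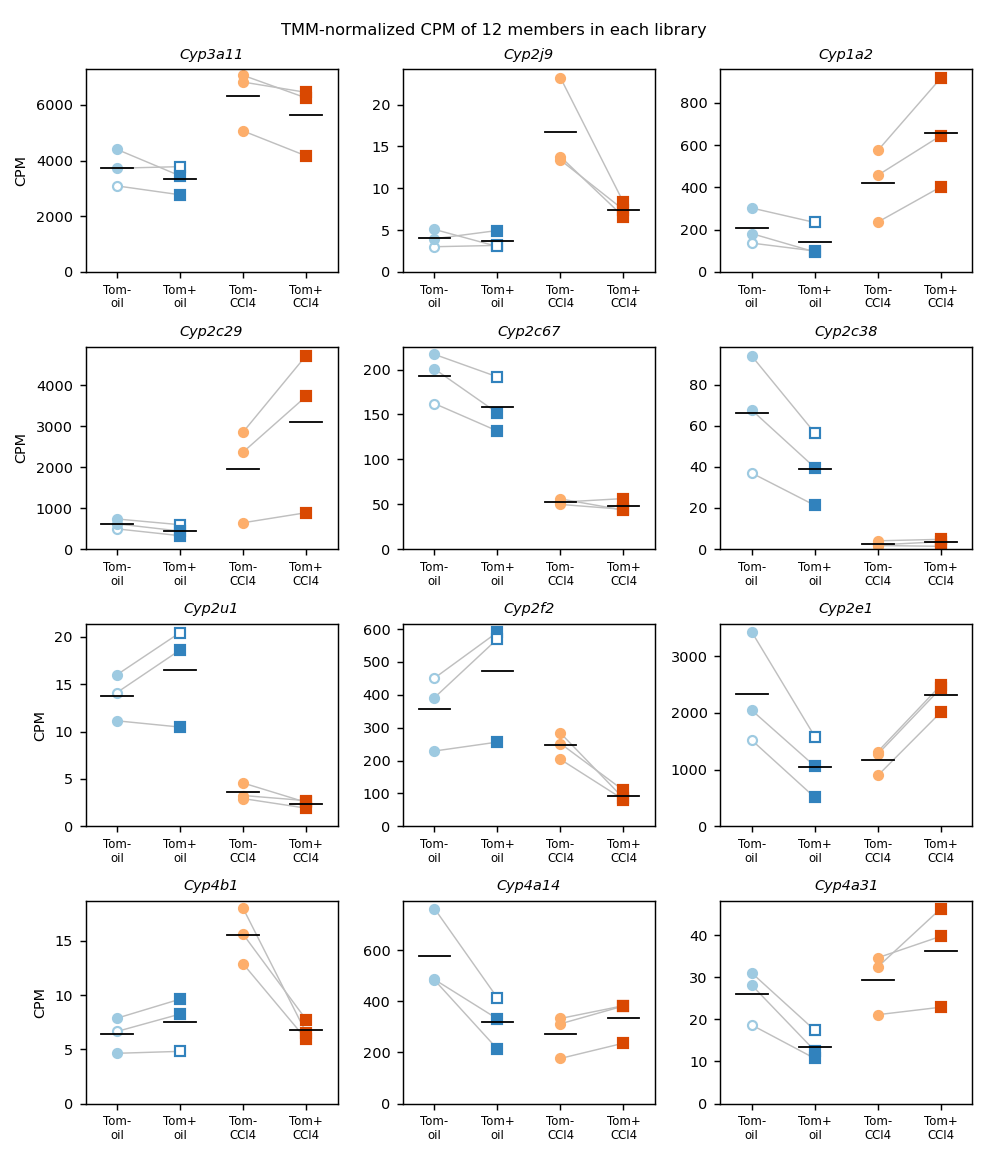
TMM-normalized CPM of 12 members in each of the 12 libraries, with grey lines between Tom- and Tom+ libraries of one number, black bars for means of 3 and open symbols for the 2 oil libraries whose reporter went against the label. Cyp2c67, Cyp2c38 and Cyp2u1 are low in all CCl4 libraries, and the lines of Cyp2e1 fall from Tom- to Tom+ in oil and rise in CCl4.

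Other members with fixed interest did not pass with CCl4. Cyp1a1 had 0.294 to 1.16 CPM in oil and 0.802 to 1.86 CPM in CCl4 (adjusted p = 0.417 in Tom- and 0.0983 in Tom+). The CAR target Cyp2b10 had 27.0 to 40.0 CPM in oil and spread from 12.4 to 132 CPM in CCl4, with replicate 1 low in both fractions (adjusted p = 0.327 and 0.398). In Tom- and Tom+, Cyp2a5, the coumarin hydroxylase, had adjusted p-values of 0.194 and 0.983, Cyp2b13 0.102 and 0.271, Cyp2a4 0.0923 and 0.875, and Cyp2d9 0.305 and 0.747. Of 9 known targets of AHR, CAR, PXR or PPAR alpha, 8 were tested. Cyp3a11 rose and Cyp4a14 fell in Tom-, and Cyp1a2, Cyp3a11 and Cyp4a31 rose in Tom+, with list medians of 0.36 and 0.92. Each of these calls was lost on leaving out some single libraries.

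Tom+ was next compared with Tom- within CCl4. Cyp4b1, Cyp2j9 and Cyp2f2 were lower in Tom+ and no member was higher, of 62 tested, against 1.74% and 0.222% of all genes. Cyp4b1 had 18, 12.9 and 15.6 CPM in Tom- and 6.54, 5.94 and 7.74 CPM in Tom+ (-1.20 ± 0.245, adjusted p = 0.0165). Cyp2j9 was at -1.18 ± 0.250 (adjusted p = 0.0191) and Cyp2f2 at -1.42 ± 0.332 (adjusted p = 0.0368). All 3 were lower in Tom+ in each of the 3 same-numbered pairs, which hold the same libraries as the test that called them. None of these calls remained without Tom+ CCl4 replicate 1 or without Tom+ CCl4 replicate 2, and 1 remained without Tom- CCl4 replicate 2 or without Tom- CCl4 replicate 3. Of 6 endothelial markers, 3 were lower in Tom+ than in Tom- here (median -0.84), summing to 111 to 150 CPM against 212 to 229 CPM. Their part in the Cyp4b1 and Cyp2j9 values was not tested.

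Libraries that carry one number in both fractions moved jointly around their group means, so each pair was also fitted as a block. Within CCl4, 3 members were then higher and the same number lower (0.736% and 3.25% of all genes). The ones higher were Cyp2e1 (1.01 ± 0.101, adjusted p = 4.88e-05), Cyp2c55 (1.34 ± 0.126, adjusted p = 2.96e-05) and Cyp2c39 (0.89 ± 0.197, adjusted p = 0.00779), and those lower were again Cyp2f2 (adjusted p = 2.43e-06), Cyp2j9 and Cyp4b1. Without the block, Cyp2e1, Cyp2c55 and Cyp2c39 had adjusted p-values of 0.175, 0.429 and 0.103. Cyp2e1 was higher in Tom+ in 3 of 3 pairs, which are the pairs that the block fitted. Its groups did not overlap, as for 28.7% of all genes.

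In oil no member passed between Tom+ and Tom- by edgeR or DESeq2, and none of the 17121 genes did by edgeR (0%). An unadjusted p under 0.05 was reached by 6 members and by 1198 genes. With the block, 6 members were lower in Tom+ and none higher, against 0.169% and 0.0642% of all genes. They were Cyp2e1 (-1.21 ± 0.102, adjusted p = 9.26e-05), Cyp2d9 (-0.997 ± 0.0724, adjusted p = 4.92e-05), Cyp4a31 (-0.93 ± 0.101), Cyp4a14 (-0.87 ± 0.0971), Cyp2c37 (-0.78 ± 0.0839) and Cyp2c38 (-0.77 ± 0.114), all lower in 3 of 3 pairs. The fit on these same pairs chose them, so that their shared sign was partly fixed by that choice. Its share over all genes was not counted. In 2 of the 3 oil pairs a library had the reporter against its label, so that the reporter did not separate the fractions there. It was 1794 CPM in Tom- and 1546 CPM in Tom+ of pair 1, and 157 and 135 CPM in pair 2. In pair 3 it was 143 CPM in Tom- and 1225 CPM in Tom+. Without the 2 oil libraries in doubt the blocked comparison in oil rested on 1 pair, which was assumed to vary like the CCl4 pairs. Cyp2e1 (-0.97 ± 0.118, adjusted p = 0.00273), Cyp2d9 and Cyp4a31 then passed, while Cyp2c38 (-0.79, adjusted p = 0.311) and Cyp4a14 (-0.57, adjusted p = 0.0555) did not, and Cyp2c37 (-0.60, adjusted p = 0.0341) was short of the fold limit.

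Whether the treatment effect differed between fractions was tested by the interaction. No member passed without the block, against 0.216% of all genes higher and 0.958% lower, with 17 members and 3178 genes at an unadjusted p under 0.05, and DESeq2 called 2 higher and 2 lower. With the pairs as a block, 13 members were higher and 5 were lower, against 1.28% and 4.19% of all genes. Higher means that the change with CCl4 in Tom+ lay above that in Tom-, as a larger rise or a smaller fall. Cyp2c38, which fell in both fractions, was among the 13. By adjusted p, the first of those higher was Cyp2e1 at 2.22 ± 0.144 (adjusted p = 4.1e-06) and the first of those lower was Cyp2f2 at -1.78 ± 0.138 (adjusted p = 9.61e-06). The highest value was that of Cyp4a12a, at 2.94 ± 0.845 (adjusted p = 0.0465), which had at most 26 counts in a CCl4 library. Without the block Cyp2e1 and Cyp2f2 were at 2.14 ± 0.564 (adjusted p = 0.0893) and -1.82 ± 0.463 (adjusted p = 0.0809). With the block and without the 2 oil libraries in doubt they were 1.96 (adjusted p = 6.07e-06) and -1.57 (adjusted p = 0.000379). The oil side of that fit was 1 pair, and its spread came from the CCl4 pairs. Without the block and those libraries they were 2.80 (adjusted p = 0.0335) and -1.87 (adjusted p = 0.169).

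The 18 members were chosen by the interaction fitted on these same pairs. Opposite signs in oil and CCl4 pairs were thus partly fixed by that choice, and their share over all genes was not counted. Of the 18 members, 12 went one way in all 3 oil pairs and the other way in all 3 CCl4 pairs. Of these, 9 were lower in Tom+ in oil and higher in CCl4, namely Cyp1a2, Cyp2a5, Cyp2c29, Cyp2c37, Cyp2c39, Cyp2c50, Cyp2e1, Cyp4a14 and Cyp4a31. The others were Cyp2a4, Cyp2f2 and Cyp4b1, which were higher in Tom+ in oil and lower in CCl4. For Cyp2e1 the log2 ratio of Tom+ over Tom- was -1.58, -1.11 and -0.95 in the 3 oil pairs and 1.17, 0.92 and 0.94 in the CCl4 pairs. For Cyp2f2 it was 0.39, 0.54 and 0.16 in oil and -1.20, -1.73 and -1.32 in CCl4. The oil pair with no library in doubt (replicate 3) had the same sign as the other oil pairs for Cyp2e1 and Cyp2f2.

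**Figure D5:**
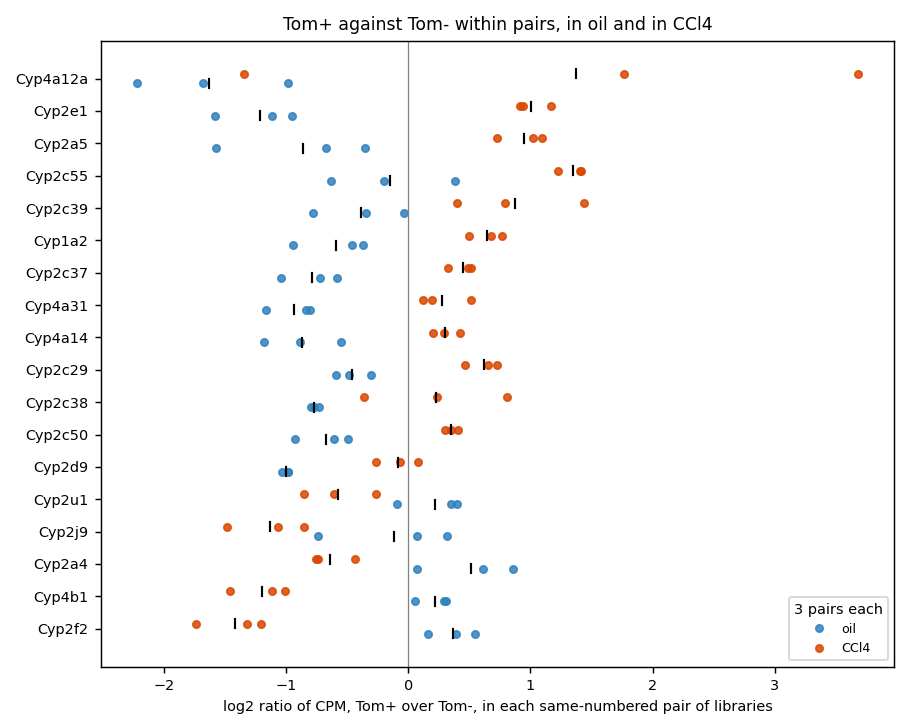
Log2 ratio of CPM of Tom+ over Tom- in each same-numbered pair of libraries (points, 3 oil in blue and 3 CCl4 in orange, black bars for means) for the 18 members that passed the interaction with the block, ordered by its value. Cyp2e1 has oil pairs from -1.58 to -0.95 and CCl4 pairs from 0.92 to 1.17, and Cyp2f2 the reverse order.

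Members were also read by their known zone. Of 8 pericentral members (Cyp1a2, Cyp2a5, Cyp2c29, Cyp2c37, Cyp2c50, Cyp2c54, Cyp2e1, Cyp3a11), Cyp3a11 rose in Tom- with CCl4, and Cyp1a2, Cyp2c29 and Cyp3a11 rose in Tom+. All 8 were positive in Tom+ (median 1.11) and 5 in Tom- (median 0.10). Of all 62 members tested, 31 were positive in Tom+ and 32 in Tom-. In oil all 8 were negative for Tom+ against Tom- (median -0.67), as were 47 of all 62 members tested (median -0.202). Without the block none of the 8 passed in oil, and with it Cyp2c37 and Cyp2e1 did. The interaction with the block was higher for 6 of the 8, and the periportal member Cyp2f2 was lower.

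By subfamily totals, of 17 tested, Cyp3a rose in Tom- (0.86 ± 0.174, adjusted p = 0.00571) and in Tom+ (0.89 ± 0.174, adjusted p = 0.00673), from 4399 ± 1025 to 8003 ± 688 CPM and from 3988 ± 642 to 7384 ± 1136 CPM (SD, n = 3). Without the 2 oil libraries in doubt, the Cyp3a total in Tom- was at 0.73 (adjusted p = 0.0278), short of the fold limit. Cyp1a rose in Tom+ (2.20 ± 0.521, adjusted p = 0.0311). Cyp4b rose in Tom- (1.28 ± 0.246, adjusted p = 0.00484). Cyp2g and Cyp2u fell in both fractions (-1.94 and -1.94 in Tom-, -1.59 and -2.79 in Tom+), and Cyp2f fell in Tom+ (-2.36). Without the 2 oil libraries in doubt Cyp2g did not pass in Tom+ (adjusted p = 0.0759). Within CCl4, Cyp2f (-1.42) and Cyp4b (-1.20) were lower in Tom+. Cyp4b, Cyp2g, Cyp2u and Cyp2f each held 1 member with a mean of at least 1 TPM. Cyp2c, the largest by TPM, had an adjusted p of 0.4 in Tom- and of 0.0943 in Tom+ (0.83 ± 0.283). Cyp2d totals were 1744 ± 200, 1456 ± 189, 1774 ± 56.3 and 1277 ± 107 CPM in Tom- oil, Tom+ oil, Tom- CCl4 and Tom+ CCl4.

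Partners of the P450s were read from lists. Por, the reductase that feeds them all, had 201, 285 and 288 CPM in Tom+ oil and 368, 502 and 618 CPM in Tom+ CCl4 (0.94 ± 0.226, adjusted p = 0.0226), and in Tom- it did not pass (adjusted p = 0.0937). The other 4 of the list (Cyb5a, Cyb5b, Cyb5r3, Pgrmc1) passed in no comparison. Of 16 transcription factors acting on P450 genes, Cux2, a repressor of male-biased genes in female liver, rose in Tom- (1.68 ± 0.227, adjusted p = 0.000861) and in Tom+ (0.78 ± 0.221, adjusted p = 0.0444). In Tom+ Cux2 did not pass without the 2 oil libraries in doubt, where Ahr did. Within CCl4, Ahr (0.76 ± 0.173, adjusted p = 0.0262) and Ppara (0.80 ± 0.156, adjusted p = 0.0133) were higher in Tom+ than in Tom-, and the other 14 did not pass. Without the 2 oil libraries in doubt, Ppara passed there and Ahr did not. With the block the interaction was higher for Ahr, Ppara and Nr1i3 (CAR) and lower for Cux2. Of 12 genes of heme synthesis and breakdown none passed in the 4 comparisons without the block, and the rate-limiting synthase Alas1 had adjusted p = 0.0722 in Tom+ with CCl4. With the block the interaction was higher for the biliverdin reductase Blvrb.

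Among 19 P450 genes of other families, 13 were tested. Cyp39a1, an oxysterol hydroxylase, rose and the bile acid enzymes Cyp7b1 and Cyp8b1 fell in both fractions, and the retinoic acid hydroxylases Cyp26a1 and Cyp26c1 rose in Tom+. Cyp8b1 changed by -2.15 ± 0.266 in Tom- and -2.69 ± 0.271 in Tom+ (adjusted p = 0.000845 and 0.000248). None of the 13 passed between Tom+ and Tom- in oil or in CCl4 without the block. With it Cyp46a1 was lower in Tom+ within CCl4, and the interaction was lower for Cyp39a1 and Cyp46a1.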

How the data were processed

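Members and gene lists were chosen with earlier results of these data known. Per the study's methods, polyA strand-specific libraries were trimmed with fastp 0.23.2 and aligned with HISAT2 2.1.0 to mm10, and the authors used TPMcalculator 0.0.4, DESeq2 1.42.1 and R 4.3.2. The counting program, its strand and multi-mapping settings and the annotation release are not given in the sources used here. The table deposited by the authors holds expected counts per gene: 60 members had a value that was not whole in at least 1 library. The test planned for counts was therefore run on expected counts rounded to whole numbers. TPM was computed from them and the deposited gene length.

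All 12 libraries were fitted together in R 4.3.3 by the quasi-likelihood test of edgeR 4.0.16 (TMM, filterByExpr, robust). A gene passed at a Benjamini-Hochberg adjusted p under 0.05 and a log2 fold change beyond 0.75. The procedure was tested on simulated data first. Same-numbered Tom- and Tom+ libraries correlated in their deviations from the group means at 0.354 to 0.586 in oil and 0.541 to 0.723 in CCl4. These numbers were taken as pairs from the data, not from a label. Alternatives were DESeq2 1.42.0, RLE scaling, other filters, the replicate block, leaving out each library and leaving out the 2 oil libraries whose reporter went against the label.

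Named genes were the most abundant member of each subfamily with at least 1 TPM, every member that passed in a comparison, 17 members fixed by name, and the members of lists that passed. Depth was 37568584 to 75331424 counts per library. RefSeq promoter windows (GRCm38.p6) were matched by symbol.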

Additional observations from a re-analysis of the deposited data

Results flagged for a closer look

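The response to CCl4 differed between Tom+ and Tom- for 18 members when same-numbered libraries were fitted as pairs (edgeR, interaction with the replicate block), and for none without the block. Values are log2 differences, Tom+ response minus Tom- response. Of the 8 pericentral members, Cyp2c54 and Cyp3a11 did not pass and 6 were higher. These were Cyp2e1 by 2.22, Cyp2a5 by 1.80 (adjusted p = 0.029), Cyp1a2 by 1.24, Cyp2c37 by 1.23, Cyp2c29 by 1.08 and Cyp2c50 by 1.03. Other members of the Cyp2c subfamily were higher too, with Cyp2c55 at 1.48, Cyp2c39 at 1.27 and Cyp2c38 at 1.04. In Cyp2d and Cyp4a, Cyp2d9 was at 0.91, Cyp4a31 at 1.21, Cyp4a14 at 1.18 and Cyp4a12a, with few counts in CCl4, at 2.94 (adjusted p = 0.0465). The 5 that were lower were Cyp2f2 at -1.785, Cyp4b1 at -1.42, Cyp2a4 at -1.155, Cyp2j9 at -1.01 and Cyp2u1 at -0.81. In the oil pairs, 2 libraries had the reporter against their label, so that the reporter did not separate the fractions in their pairs. Without those libraries the oil side of the blocked fit was 1 pair, which was assumed to vary like the CCl4 pairs. In that fit, Cyp2c39 (0.93, adjusted p = 0.185), Cyp2u1 (-0.49, adjusted p = 0.406) and Cyp4a12a (3.05, adjusted p = 0.199) did not pass, and Cyp2a4 (-0.70, adjusted p = 0.013) was short of the fold limit. The 6 endothelial markers were lower in the same interaction (median -1.03), beside Cyp4b1 and Cyp2j9, and their part in these values was not tested.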

How the results depend on the processing

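Of 1372 alternative values for 71 single-member results, none changed sign, 105 lost and 90 gained a call, and 1177 kept theirs. With DESeq2, 10 members rose in Tom-, 10 rose in Tom+, 1 was higher in Tom+ within CCl4, 2 were higher and 2 lower in the interaction, and 8 rose after summing. By adjusted p alone, 10 fell in Tom+ and 10 were lower in Tom+ within CCl4. With at least 10 counts in every library, 4 fell in Tom- and 1 was lower in the interaction. Without a filter, 2 rose in Tom+. Fitting the compared groups alone gave 3 higher in Tom+ with CCl4 and 1 higher in Tom+ within CCl4. Averaging both CCl4 contrasts over 12 libraries gave 10 higher and 8 lower in place of the 2 and 5 after summing.

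With the replicate block, 11 fell in Tom- and 8 in Tom+ with CCl4 (1.92% and 2.77% of all genes), where same-numbered libraries did not pair (mean correlations 0.062 and 0.178). Cyp2e1, Cyp2a5, Cyp2b13 and Cyp2c39 then fell in Tom-, Cyp2b9, Cyp2b13 and Cyp2j5 fell and Cyp2e1, Cyp2c37, Cyp2c50 and the Cyp2c total rose in Tom+, and Cyp3a11 in Tom+ (0.74) was short of the fold limit. Among listed genes, Hmox1 rose in Tom-, Alas1 rose in Tom+ and Cux2 did not pass in Tom+. The block gave 3 higher in Tom+ within CCl4, 6 lower in oil, and 13 higher and 5 lower in the interaction. Subfamily totals called with the block were 8 with CCl4 in Tom+, 1 in oil and 5 in the interaction, and DESeq2 called 3 in the interaction. Without the 2 oil libraries in doubt, 3 rose in Tom-, and 1 was higher and 1 lower in the interaction, with 2 subfamily totals. The block without these libraries, chosen after seeing the data and resting on 1 oil pair, gave 5 higher in Tom+ within CCl4, 7 lower in oil, and 14 higher and 3 lower in the interaction. The causes were not tested.

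Leaving out 1 library gave 3 to 7 higher and 5 to 9 lower in Tom-, 0 to 7 and 4 to 7 in Tom+, 0 and 0 to 3 within CCl4, 0 in oil, and 0 and 0 to 1 in the interaction, the 1 being without Tom- oil replicate 3, Tom+ oil replicate 2 or Tom+ oil replicate 3. After summing it gave 1 to 7 higher and 4 to 6 lower, with 1 without summed oil replicate 1 or summed CCl4 replicate 2 and 7 without summed CCl4 replicate 1. Subfamily totals called were 3 to 5 in Tom-, 4 to 6 in Tom+, 0 to 2 within CCl4, 0 in oil and 0 to 1 in the interaction. The difference in the share of counts, in percent, was 0.0875 to 0.370 in Tom-, 0.628 to 1.03 in Tom+, 0.0986 to 0.499 within CCl4 and -0.441 to -0.194 in oil. Members at a few counts, such as Cyp1b1, could not be tested at this depth.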
